A study of Mus musculus with 3 samples.

Results

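The genes described here act in pathways that hold off or bring about apoptosis, which was not itself measured. They are 9 of the 27998 genes counted in the series: Mcl1, Bcl2a1a, Bcl2a1b, Bcl2a1d, Bcl2, Bcl2l11, Cflar, Fas and Bax. The choice was made by name from what is known of neutrophil survival and apoptosis, with earlier results of these data known. All 9 were found once in the gene list of each library. The study profiled single cells from male C57BL/6J mice, 10 weeks old, 3 days after burn/tenotomy, an injury that joins a burn on the back to a cut through the Achilles tendon and leads to bone forming at the tendon (heterotopic ossification). Each of 3 sites gave 1 droplet library (10x 3' chemistry, which counts transcripts as unique molecular identifiers, UMIs): bone marrow flushed from the femurs and freed of red cells, blood cells recovered from the mononuclear layer of a Ficoll gradient and freed of red cells, and cells of the tendon injury site released by collagenase and dispase. How many mice went into a library is not given in the labels or methods. Because each site was prepared in its own way and sequenced once, the effects of site, of preparation and of the single library cannot be told apart, and each difference between sites below compares those libraries. There is no replicate check and no p-value, and the 95% intervals cover counting error only.

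Neutrophils are short-lived cells that die by apoptosis unless survival signals hold it off. In the mitochondrial pathway, BH3-only proteins such as BIM (Bcl2l11) free BAX to open the outer mitochondrial membrane, and the anti-apoptotic proteins MCL1, A1 (the Bcl2a1 genes) and BCL2 bind and restrain them. In the death receptor pathway, FAS ligand engages FAS and activates caspase-8, which c-FLIP (Cflar) limits. MCL1 is known to be turned over quickly and to be needed by neutrophils, and the Bcl2a1 genes are known to be induced by inflammatory signals.

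After filtering, 1813 marrow, 2146 blood and 4780 tendon cells remained. Of the barcodes deposited, 2 were shared by marrow and blood, 1 by marrow and tendon, and 6 by blood and tendon. Cells of neutrophil-like and promyelocyte-like clusters were placed in 4 maturity gates by their transcripts: azurophil granule genes such as Elane (231 marrow cells), cycling genes (234), immature neutrophil genes such as Ltf (654), and mature genes such as Cxcr2 (201). The mature gate held 361 cells in blood and 480 in tendon. Its cells held the transcripts used to gate them in all libraries, with Cxcr2 at 1570, 1697 and 1068 CPM (a gene's UMIs in a group of cells, scaled to 1000000 UMIs in all) in marrow, blood and tendon, and Ltf at 129.7, 28.9 and 3.54. The median mature cell held 11198 UMIs in marrow, 8303 in blood and 3608 in tendon, so levels are given below in CPM and also per cell. Levels of other cells' transcripts in mature tendon neutrophils were low: Col1a1 stood at 23.8 CPM against 5179 in mesenchymal-like cells, and C1qa at 15.7 against 1703 in monocyte/macrophage-like cells. The summed monocyte/macrophage markers stood at 690.4, 356.0 and 325.0 CPM in mature marrow, blood and tendon neutrophils and at 10580 in the monocyte/macrophage-like cells of the tendon. The summed stress and dissociation list (Fos, Jun, Junb, Egr1, Atf3, Hspa1a, Hspa1b, Dusp1) differed between the libraries, at 559.9 CPM in mature marrow cells, 1988 in blood and 4216 in tendon. Its part in the results was not tested.

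The 3 Bcl2a1 genes lie on chromosome 9 and are near copies of each other, so the sequence decides how well their counts can be told apart. Bcl2a1a (ENSMUSG00000102037) spans 88956900 to 88962419 on the plus strand, Bcl2a1b (ENSMUSG00000089929) spans 89199209 to 89207827 on the plus strand, and Bcl2a1d (ENSMUSG00000099974) spans 88723285 to 88731914 on the minus strand, in GRCm38 with GENCODE M21 gene models. Aligned, their transcripts were 98.2% (a and b), 98.8% (a and d) and 99.1% (b and d) identical. Of the 90-base windows in the last 500 bases, where 3' reads fall, 60.3% were found in no other Bcl2a1 transcript for Bcl2a1a, 60.6% for Bcl2a1b and 34.8% for Bcl2a1d. The split of reads among the 3 genes is therefore uncertain, and their sum is given beside the single values.

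The region upstream of the 3 genes is shown because all 3 were higher in tendon neutrophils in the comparisons below. The 150 bases that end before the first annotated transcribed base (RefSeq, GRCm38.p6, at chr9:88956750-88956899, chr9:89199059-89199208 and chr9:88731915-88732064, the last on the minus strand) read, 5′ to 3′, with capitals for GAGGAAGT, letters that the myeloid factor PU.1 is known to bind:
Bcl2a1a: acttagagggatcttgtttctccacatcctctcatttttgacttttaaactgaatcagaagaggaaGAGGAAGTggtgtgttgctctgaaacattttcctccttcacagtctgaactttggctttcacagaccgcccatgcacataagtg
Bcl2a1b: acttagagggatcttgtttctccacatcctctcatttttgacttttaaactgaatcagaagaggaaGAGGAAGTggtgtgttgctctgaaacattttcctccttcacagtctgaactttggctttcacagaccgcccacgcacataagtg
Bcl2a1d: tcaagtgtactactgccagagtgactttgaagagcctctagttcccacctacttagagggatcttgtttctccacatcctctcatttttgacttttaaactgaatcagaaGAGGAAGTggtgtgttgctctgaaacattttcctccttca

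The Bcl2a1a and Bcl2a1b stretches differed at 1 of 150 positions, and Bcl2a1d matched each of them at 100 of 106 aligned positions, the other 6 being a gap. Over windows of 300 bases around all annotated starts, searched on both strands, GAGGAAGT lay in 3 of the 9 members (the 3 Bcl2a1 genes) and in 3.20% of 32851 promoters. This motif was chosen after the sequences were seen. For each motif, a member counted if the window of any of its annotated starts held it, whereas the share over promoters counts each window alone. The kappaB motif, which tolerates many letters, lay in 7 members and 38.0% of promoters, TTGCNNAA (C/EBP factors) in Cflar alone and 10.8%, and TTCNNNGAA (STAT factors) in Fas alone and 8.30%. A match is a description of letters and not a bound site.

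The first question was how the members differ along maturation within the bone marrow. Mcl1 and Fas were highest in the mature gate, Bcl2 and Bax were highest in the azurophil gate, and the Bcl2a1 genes were close to 0 throughout. Mcl1 (ENSMUSG00000038612, chromosome 3, 95658788 to 95663176) stood at 118.8 CPM in the azurophil gate, 106.2 in the cycling gate, 279.0 in the immature gate and 971.7 in the mature gate. The azurophil and cycling intervals overlapped and the later gates stood apart from them and from each other.

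**Figure D1:**
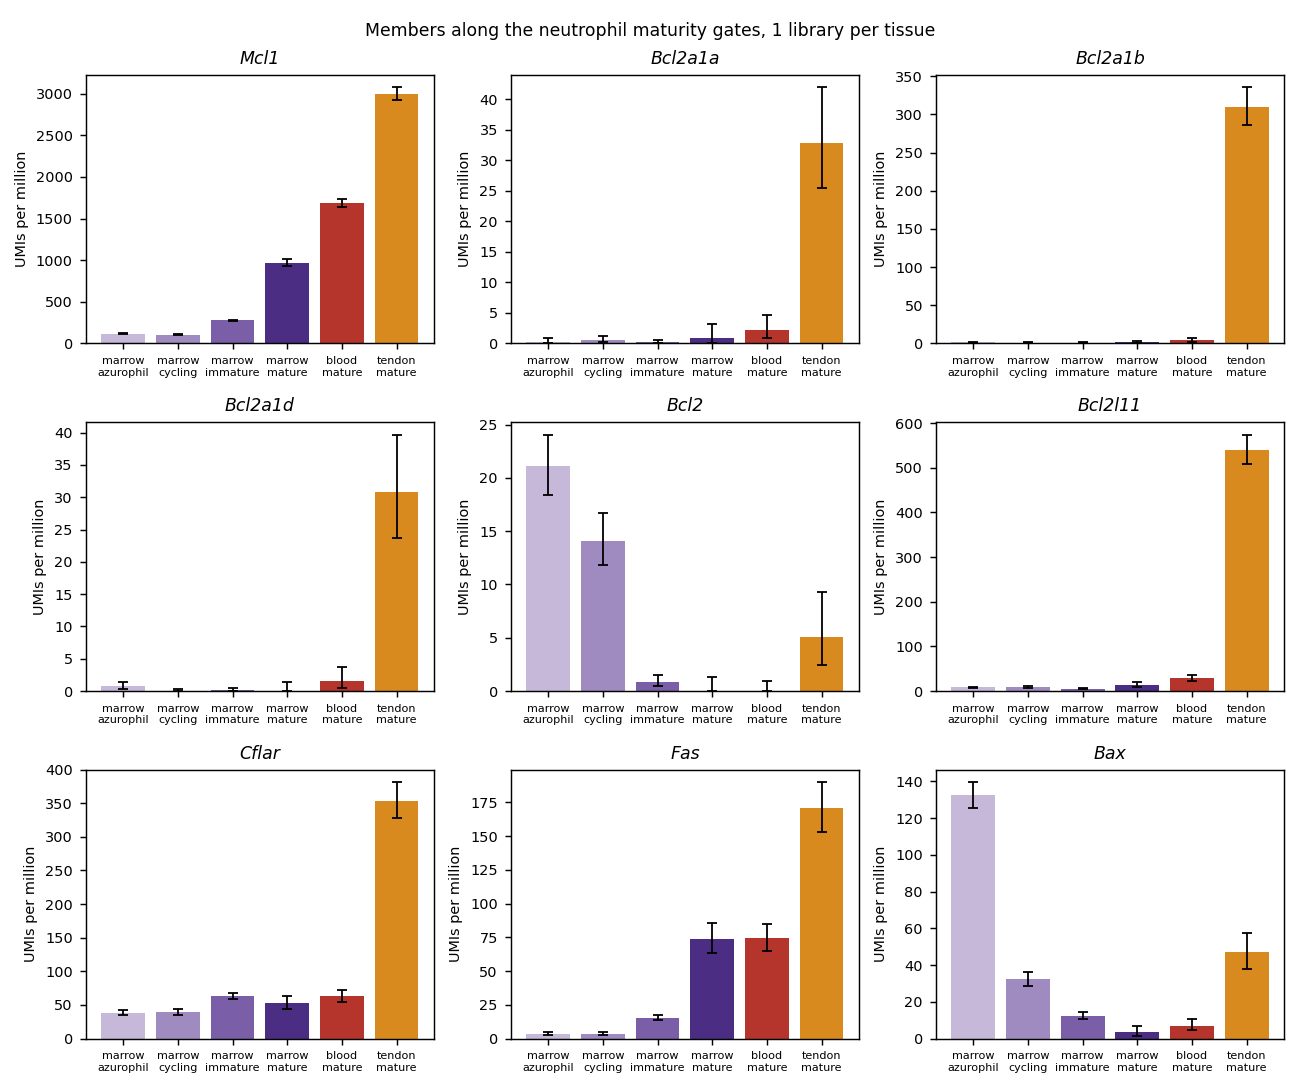
CPM (linear axis from 0, a scale of its own in each panel) of the 9 members in the 4 marrow gates and in the mature gates of blood and tendon; bars are the pooled level of 1 library's cells and black lines the 95% Poisson interval. Mcl1 runs from 106.2 CPM in cycling marrow cells to 2999 in mature tendon cells, Bcl2a1b is near 0 outside tendon, and Bcl2 and Bax are highest in the azurophil gate.

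Fas, the death receptor (ENSMUSG00000024778, chromosome 19, 34290666 to 34327772), followed the same order in marrow, with 3.45, 3.58, 15.6 and 73.8 CPM from the azurophil to the mature gate. Bax, the effector of the mitochondrial pathway (ENSMUSG00000003873, chromosome 7, 45461697 to 45466898), ran the other way, with 132.3, 32.2, 12.3 and 3.52. Bcl2 (ENSMUSG00000057329, chromosome 1, 106538178 to 106714274) gave 226 UMIs in the azurophil gate, 130 in the cycling gate, 12 in the immature gate and 0 in the mature gate, where a count of 0 allows up to 1.32 CPM. Bcl2l11 (ENSMUSG00000027381, chromosome 2, 128126038 to 128162547) stood at 8.03, 9.65, 4.96 and 14.1, and Cflar (ENSMUSG00000026031, chromosome 1, 58711508 to 58758884) at 38.6, 39.1, 62.8 and 53.2. Of the 6 members named here, Cflar varied least over the 4 gates. The 3 Bcl2a1 genes together gave 26, 13, 18 and 5 UMIs in the 4 gates.

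Between mature and immature marrow cells, 5 of the 9 members had at least 50 UMIs over both groups, and 3 of them were at least 2-fold higher in mature cells, where 11.3% of 7138 genes were. Fas was 4.74-fold higher (log2 ratio 2.24, 95% interval 1.95 to 2.54), Mcl1 was 3.48-fold higher (1.80, 1.72 to 1.88), and Bcl2l11 was 2.83-fold higher (1.503, 0.85 to 2.12). Bax was 3.50-fold lower (-1.81, -3.04 to -0.80), 1 member against a background of 21.8% of genes at least 2-fold lower. Cflar did not pass (-0.24, -0.53 to 0.03). Bax reached the 50 UMI minimum only through the immature cells, where it was high, so its call carries no weight as a count. The mature cells held fewer UMIs than the immature cells (median 11198 against 21233), and per cell Mcl1 gave 11.0 UMIs against 6.10, Fas 0.836 against 0.341 and Bax 0.0398 against 0.269.

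The rest of the apoptosis machinery gave a mixed picture in the same comparison. Of the anti-apoptotic list, 2 of 7 genes could be tested and both were at least 2-fold higher, Mcl1 and Bcl2l1 (BCL-XL, 19.3 against 9.30 CPM). Of the BH3-only list, 3 of 4 tested genes were higher, among them Bid, which links caspase-8 to mitochondria (39.99 against 14.1). The death receptor list had 2 of 7 tested genes higher, Fas and the TNF receptor Tnfrsf1a (157.3 against 72.9), and 2 lower. The list of caspases and mitochondrial factors had 2 of 6 lower and none higher, among them cytochrome c, Cycs (12.3 against 38.9). Among inhibitors of apoptosis 1 of 4 was lower, Birc5, a mitotic gene as well (3 UMIs against 380, log2 ratio -4.33, -6.62 to -2.77). Birc5 and Cycs reached the UMI minimum only through the immature cells, so their calls carry no weight as counts. In the list of PIM and AKT kinases 2 of 3 were higher, Pim1 (170.5 against 67.0) and Akt1, in the p53 list 1 of 2 was lower, and in the multidomain list Bax was 1 of 2 and lower. In the stress list 3 of 4 tested genes were higher. Over all genes tested here 11.3% were higher and 21.8% lower. The ratios of Bcl2l1, Tnfrsf1a (log2 ratio 1.11) and Akt1 lay close to the 2-fold limit. Leaving S100a8, S100a9 and mitochondrial UMIs out of the total lowers all ratios alike, that of Mcl1 from 1.80 to 1.67. Bcl2l1, Tnfrsf1a and Akt1 then fall under 2-fold.

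The second question was whether mature neutrophils of the blood differ from those of the marrow. Most of the members that could be tested lay under 2-fold. Of the 4 members that could be tested, only Bcl2l11 was at least 2-fold higher in blood (29.2 against 14.1 CPM, log2 ratio 1.05, 0.46 to 1.68), where 4.03% of 4618 genes were, and none was lower, where 2.3% were. Bcl2l11 gave 91 UMIs in mature blood cells and 32 in mature marrow cells. It reached the UMI minimum only through blood, where it was high, so its call carries no weight as a count. Its value lay at the limit and was 0.94 when S100a8, S100a9 and mitochondrial UMIs were left out of the total. Under that scaling the genes called over all those tested went from 186 higher and 106 lower to 131 and 144. Mcl1 was 1.74 times its marrow level (1690 against 971.7, log2 ratio 0.80, 0.73 to 0.87). Fas showed no detectable difference (74.5 against 73.8, log2 ratio 0.01, -0.28 to 0.31), and Cflar stood at 63.2 against 53.2 (0.25, -0.08 to 0.59).

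The members with few counts stayed few in blood. Bcl2 gave 0 UMIs in mature cells of both libraries, which allows up to 0.963 CPM in blood. The 3 Bcl2a1 genes summed to 25 UMIs over 361 blood cells and to 5 over 201 marrow cells, or 8.03 (5.19 to 11.8) and 2.20 (0.714 to 5.13) CPM. These intervals did not overlap. Bax gave 22 and 8 UMIs. Beside Bcl2l11 in the BH3-only list, the one list with genes past 2-fold was the stress list, in which 5 of 5 tested genes were higher in blood. The lists tested were 2 anti-apoptotic genes, 1 multidomain gene, 4 BH3-only genes, 5 of the death receptor pathway, 3 caspases and mitochondrial factors, 3 inhibitors of apoptosis, 3 kinases and 1 of the p53 list.

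The third question was how mature neutrophils at the injury differ from those in blood, the same blood cells as in the previous comparison. Here 7 of 8 tested members were at least 2-fold higher in tendon, where 15.3% of 4660 genes were, and none was lower, where 13.2% were. The higher members held genes of both directions of the pathway: the anti-apoptotic Bcl2a1 genes and Cflar, and the pro-apoptotic Bcl2l11, Bax and Fas. Of the 7, Bcl2a1a, Bcl2a1b, Bcl2a1d and Bax reached the 50 UMI minimum only through tendon, where they were high, so these 4 had to differ and the count is no support by itself. Of the 4 members with at least 50 UMIs in blood alone, Bcl2l11, Cflar and Fas were higher and Mcl1 was under 2-fold.

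**Figure D2:**
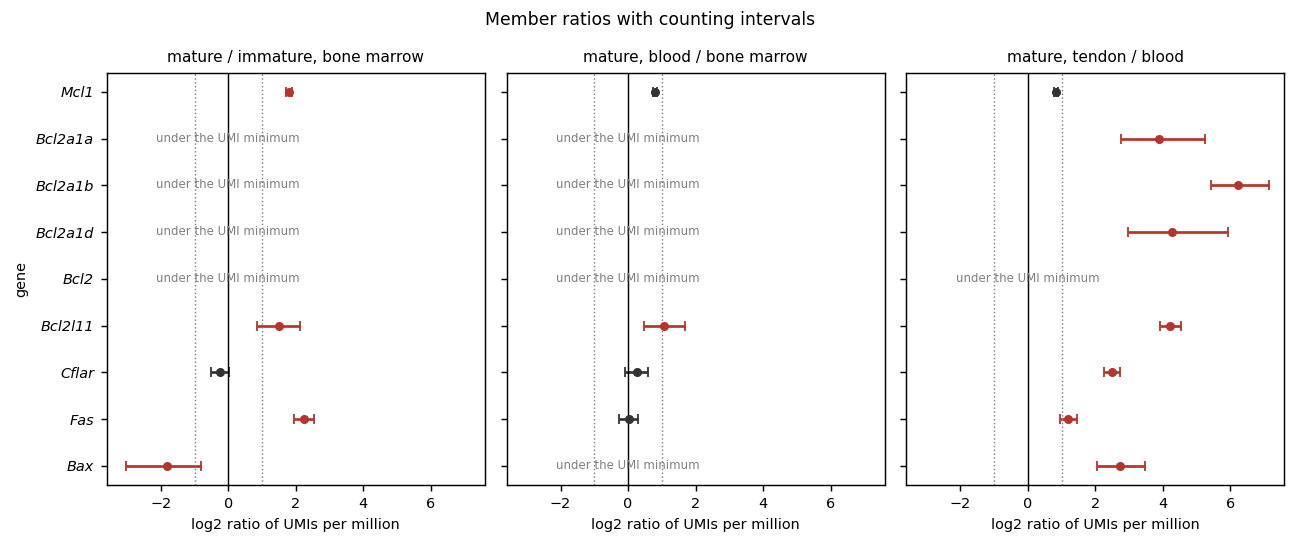
Log2 ratios of CPM of the 9 members in 3 comparisons, with 95% intervals from the exact split of counts; dotted lines mark 2-fold, red points lie past it, and a member under 50 UMIs over both groups has no point. From left to right, 4 members lie past 2-fold in marrow maturation, 1 from marrow to blood, and 7 from blood to tendon.

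Bcl2a1b was the member with the widest gap. It gave 612 UMIs in 480 mature tendon cells and 13 in 361 mature blood cells, or 309.8 (285.7 to 335.3) and 4.17 (2.22 to 7.14) CPM, a log2 ratio of 6.21 (5.43 to 7.13). Bcl2a1d stood at 30.9 against 1.61 (4.27, 2.97 to 5.94) and Bcl2a1a at 32.9 against 2.25 (3.87, 2.75 to 5.24), with overlapping intervals. When cells had to hold at least 500 genes and at most 10% mitochondrial UMIs, the ratios were 3.41 for Bcl2a1d and 3.74 for Bcl2a1a. Together the 3 genes stood at 373.6 (347.1 to 401.5) against 8.03 CPM, a sum that an exchange of counted reads among them would not change.

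Bcl2l11, the BH3-only activator, was 18.5-fold higher, at 540.1 (508.2 to 573.5) against 29.2 CPM (log2 ratio 4.21, 3.90 to 4.53). Bax was 6.67-fold higher, at 47.1 against 7.06 (2.74, 2.05 to 3.48). Cflar was 5.59-fold higher, at 353.8 against 63.2 (2.48, 2.25 to 2.72). Fas was 2.29-fold higher, at 170.6 against 74.5 (1.20, 0.95 to 1.44), and was 0.94 on the log2 scale when S100a8, S100a9 and mitochondrial UMIs were left out of the total. These UMIs weighed differently on the libraries, since S100a8 and S100a9 took 30.2% of UMIs in mature blood cells and 16.7% in mature tendon cells. The scaling moved the median of all genes from -0.05 to -0.30 and the calls over all genes from 715 higher and 615 lower to 544 and 934.

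Mcl1 stood at 2999 (2923 to 3076) CPM in tendon and 1690 (1645 to 1736) in blood. The log2 ratio of 0.83 (0.77 to 0.88) lay under the 2-fold limit but clear of 0. Bcl2 gave 10 UMIs in tendon and 0 in blood.

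Counted per cell rather than as CPM, Mcl1 and Fas differed less between the sites than the other members. Mcl1 gave 12.3 UMIs per mature tendon cell against 14.6 in blood and 11.0 in marrow, and Fas 0.702 against 0.643 and 0.836, so both varied little over the 3 sites. Bcl2l11 gave 2.22 UMIs per tendon cell against 0.252 in blood and 0.159 in marrow, Bcl2a1b 1.275 against 0.0360 and 0.0149, and Cflar 1.46 against 0.546 and 0.602. Bax gave 0.194 against 0.0609 and 0.0398. The tendon cells held the fewest UMIs in all, and less RNA in a cell cannot be told apart here from less RNA recovered.

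**Figure D3:**
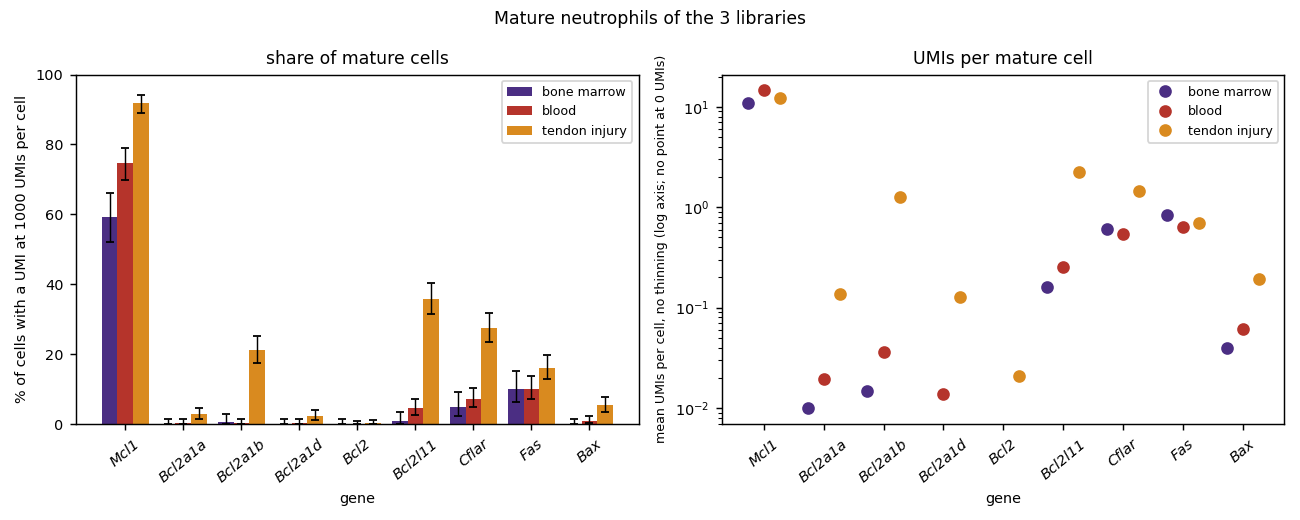
Left, percent of mature neutrophils with at least 1 UMI of each member after every cell was thinned to 1000 UMIs, with exact 95% binomial intervals (linear axis, 0 to 100); right, mean UMIs per cell before thinning (log axis). On the right, Mcl1 and Fas lie close together at the 3 sites while the tendon points of the Bcl2a1 genes, Bcl2l11, Cflar and Bax lie above the others.

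At a fixed depth, the shares of cells with a UMI of Mcl1, Bcl2l11, Cflar and Bcl2a1b were highest in tendon. With each cell thinned to 1000 UMIs, which left out 2 marrow, 3 blood and 12 tendon cells, Mcl1 was seen in 59.3% (52.1 to 66.2) of mature marrow cells, 74.6% (69.7 to 79.0) of blood cells and 91.9% (89.0 to 94.2) of tendon cells. Bcl2l11 was seen in 1.01%, 4.47% and 35.9%, and Cflar in 5.03%, 7.26% and 27.6%. Bcl2a1b was seen in 0.503% (0.0127 to 2.77), 0.279% (0.00707 to 1.55) and 21.2% (17.5 to 25.1), with overlapping intervals in marrow and blood. In tendon mesenchymal-like cells, which should lack Bcl2a1b, it was seen in 0 of 699 cells at that depth, which allows up to 0.429%, and in 2.57% before thinning at a median of 34349 UMIs per cell. Without thinning the Bcl2a1b share was 46.9% of mature tendon cells, 3.60% of blood and 1.49% of marrow cells.

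The mature tendon cells came from 2 clusters that differed in depth. The larger gave 375 cells with Bcl2a1b at 237.8 (215.3 to 262.1), Bcl2l11 at 549.5 (514.9 to 585.8) and Mcl1 at 2903 CPM. The smaller gave 105 cells with a median of 2546 UMIs and had Bcl2a1b at 767.1 (665.9 to 879.3), Bcl2l11 at 480.4 (401.1 to 570.8) and Mcl1 at 3612. Bax stood at 35.1 (26.8 to 45.2) and 122.9 (84.6 to 172.6), and Cflar at 329.2 and 510.2. The stress list was higher in the smaller cluster as well, at 8107 CPM against 3604 in the larger, and its part was not tested. Without the smaller cluster the ratio of tendon to blood was 5.83 on the log2 scale for Bcl2a1b, 4.23 for Bcl2l11, 2.38 for Cflar, 2.32 for Bax and 1.19 for Fas. Bcl2a1a and Bcl2a1d then fell under the 50 UMI minimum.

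The lists of the same pathways, which hold the members as well as other genes, were in part higher in tendon than in blood. In the anti-apoptotic list 4 of 5 tested genes were at least 2-fold higher in tendon, the 3 Bcl2a1 genes and Bcl2l1 (106.8 against 29.9 CPM, log2 ratio 1.84, 1.48 to 2.21). The 3 Bcl2a1 genes are members that reached the UMI minimum only through tendon, so of the higher genes only Bcl2l1 adds to the members. In the BH3-only list 2 of 4 were higher, Bcl2l11 and the p53 target Pmaip1, and Bid was lower (28.9 against 58.4, -1.02, -1.47 to -0.58). Pmaip1 reached the UMI minimum only through tendon, so its call carries no weight as a count. The multidomain list had Bax higher and Bak1 not past 2-fold. The death receptor list had 2 of 6 higher, both members. In the caspase list 1 of 5 was higher, Cycs, and among inhibitors of apoptosis 0 of 3. Over all genes tested in this comparison 15.3% were higher and 13.2% lower.

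In the kinase list 1 of 3 was higher, Pim1, a serine/threonine kinase induced by cytokines (1311 against 229.8 CPM, log2 ratio 2.51, 2.39 to 2.63). In the p53 list both tested genes were higher: the p53 negative regulator Mdm2 and the cell cycle inhibitor Cdkn1a, with 534 UMIs in tendon and 2 in blood (8.72, 6.86 to 11.8). Cdkn1a reached the UMI minimum only through tendon, so its call carries no weight as a count. Mdm2 lay closer to the 2-fold limit than Fas, which fell under it when S100a8, S100a9 and mitochondrial UMIs left the total. That scaling lowers all ratios of the comparison alike, so Mdm2 falls under 2-fold as well. In the stress list 4 of 6 were higher.

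**Figure D4:**
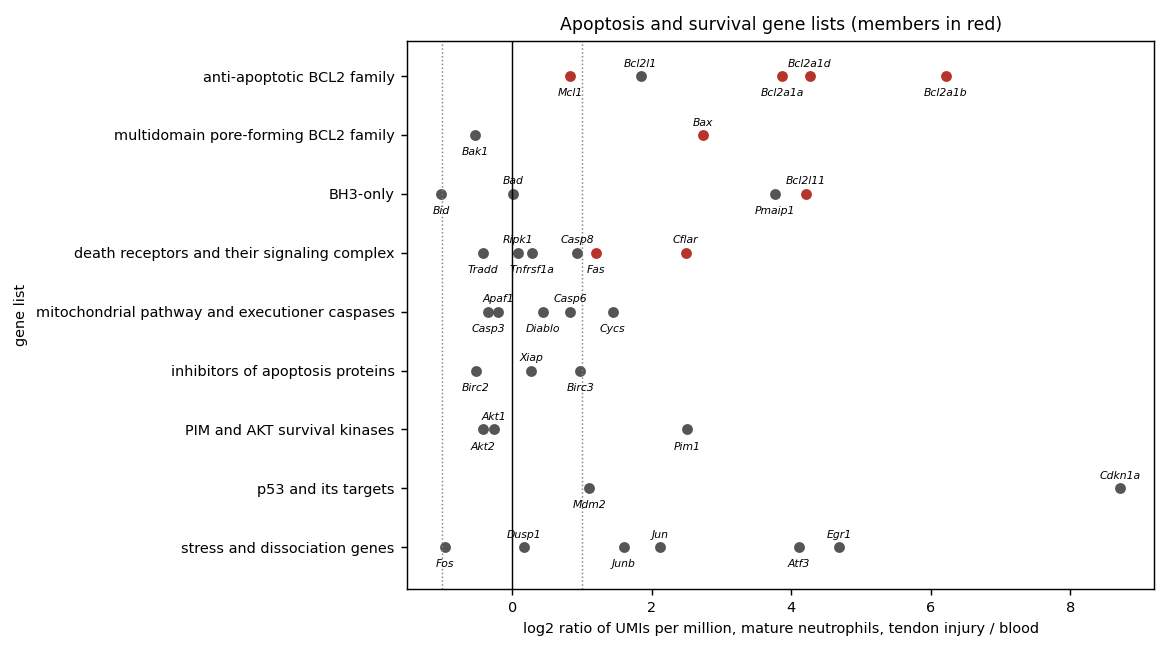
Log2 ratio of CPM in mature neutrophils of tendon over blood (x axis) for the genes of 9 lists (rows) that had at least 50 UMIs over both groups; members are red, dotted lines mark 2-fold. The Bcl2a1 genes, Bcl2l11, Cdkn1a, Pmaip1, Egr1 and Atf3 lie farthest to the right, while most death receptor, caspase and inhibitor genes lie between the dotted lines.

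The fourth question was whether the tendon levels belong to neutrophils or to the myeloid cells around them. Against the 2542 monocyte/macrophage-like cells of the same library, 5 of 9 members were at least 2-fold higher in mature neutrophils, where 9.73% of 10571 genes were, and Bax was lower, where 57.1% were. Fas was 8.26-fold higher (170.6 against 20.6 CPM, log2 ratio 3.05, 2.85 to 3.24), Bcl2l11 3.89-fold (540.1 against 138.7), Bcl2a1a 3.71-fold (32.9 against 8.87), Mcl1 3.02-fold (2999 against 992.3) and Bcl2a1b 2.31-fold (309.8 against 133.8). Bax was 4.40-fold lower (47.1 against 207.0, -2.14, -2.45 to -1.84). Cflar (0.92), Bcl2a1d (0.32) and Bcl2 (-0.11) lay under 2-fold.

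The median of all genes was -1.31 on the log2 scale in this comparison. Relative to that median Fas stood at 4.35, Bcl2l11 at 3.27, Bcl2a1a at 3.20, Mcl1 at 2.90, Bcl2a1b at 2.52 and Bax at -0.83, so Bax no longer passed 2-fold. Cflar at 2.22, Bcl2a1d at 1.62 and Bcl2 at 1.20 then passed it as higher, Bcl2 with only 10 UMIs in the neutrophils. The calls over all genes went from 1029 higher and 6037 lower to 2932 and 3028. Without the smaller neutrophil cluster the Bcl2a1b ratio was 0.83 and no longer passed. Per cell, Mcl1 gave 12.3 UMIs in neutrophils and 12.9 in monocyte/macrophage-like cells, whose median depth was 12045 UMIs against 3608. Bcl2a1b gave fewer UMIs per neutrophil than per monocyte/macrophage-like cell, at 1.275 against 1.74. Bcl2l11 gave 2.22 against 1.80, Bcl2a1a 0.135 against 0.115, Fas 0.702 against 0.268 and Bax 0.194 against 2.69.

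In the same comparison 4 of 7 anti-apoptotic genes were higher in neutrophils, with Bcl2l1 at 106.8 against 27.8 CPM, and 1 was lower, Bcl2l2 with 1 UMI against 224 (log2 ratio -3.74, -9.05 to -1.25). Both tested multidomain genes were lower. BH3-only genes split into 2 higher, Bid among them (28.9 against 11.8), and 2 lower of 6. Death receptor genes split into 2 higher and 4 lower of 9, with the adapter Fadd at 1 UMI against 209 (-3.64, -8.95 to -1.15). Of the caspase list 3 of 7 were lower. Of 4 inhibitors 1 was higher and 1 lower, Birc5 (4 UMIs against 1080, -4.01, -5.89 to -2.65), and of 6 kinases 1 was higher, Pim1 (1311 against 491.3), and 2 were lower. In the p53 list 2 of 3 and in the stress list 3 of 8 were lower, none higher. Over all genes tested here 9.73% were higher and 57.1% lower. Bcl2l2, Fadd and Birc5 reached the UMI minimum only through the monocyte/macrophage-like cells, so their calls carry no weight as counts.

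**Figure D5:**
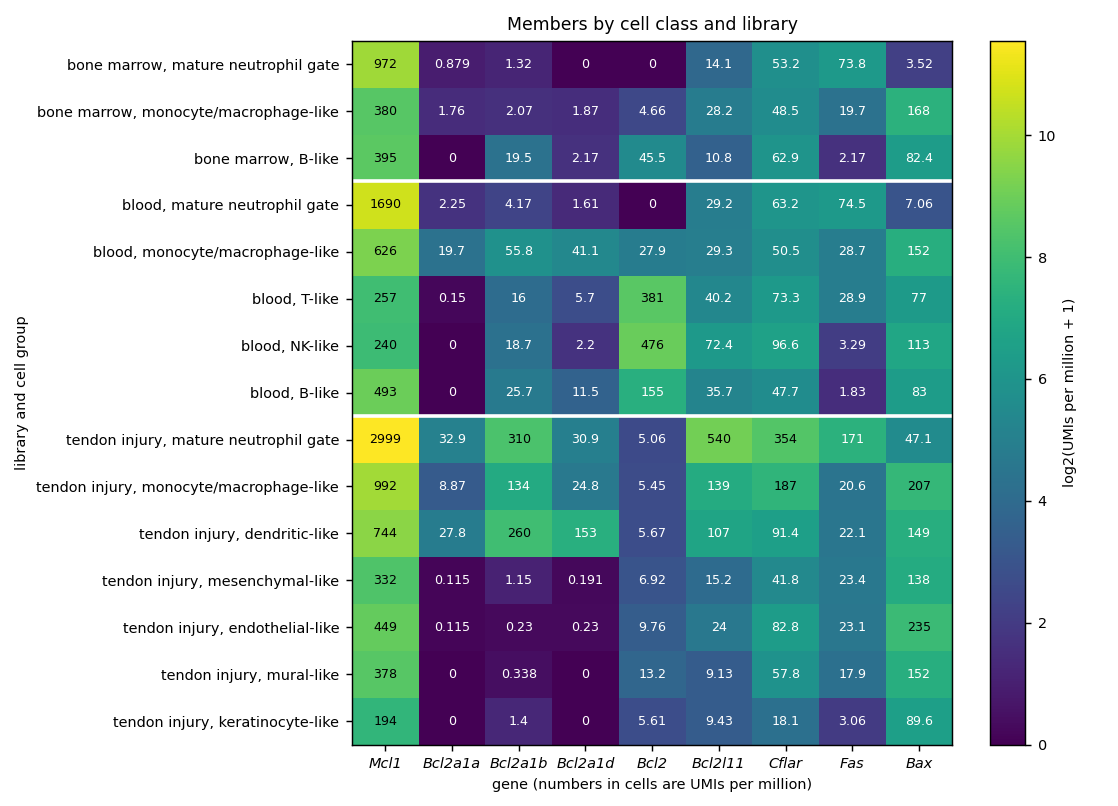
Levels of the 9 members (columns) in mature neutrophils and other cell classes of each library (rows), as CPM written in each cell and colored by log2(CPM + 1). The Bcl2a1 columns are filled in tendon neutrophils, monocyte/macrophage-like and dendritic-like cells and near 0 in mesenchymal-like, endothelial-like, mural-like and keratinocyte-like cells, and Bcl2 is highest in blood NK-like and T-like cells among the groups shown, which hold at least 50 cells.

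The levels were also ranked over the 19 groups of at least 50 cells. These include 63 low-depth tendon cells that the gate rule put in the azurophil gate although Elane gave 0 UMIs in them, and which held the highest level of Mcl1, Bcl2a1a, Bcl2a1b, Cflar and Fas. Mature tendon neutrophils came next for these 5 genes, with intervals that overlapped those of the 63 cells for Mcl1, Cflar and Fas. They led for Bcl2l11 (540.1, 508.2 to 573.5), with an interval that overlapped that of the 63 cells (469.5, 369.9 to 587.7). For Mcl1 the mature blood gate followed at 1690 CPM, and tendon monocyte/macrophage-like cells at 992.3 and mature marrow neutrophils at 971.7 came next with overlapping intervals. Bcl2a1a in mature tendon neutrophils (32.9) and tendon dendritic-like cells (27.8) overlapped as well. Bcl2a1d was highest in tendon dendritic-like cells (153.2, 135.5 to 172.6), with an interval that overlapped that of the 63 cells (86.5, 47.3 to 145.1). It made up 34.7% of the Bcl2a1 UMIs in the dendritic-like cells and 8.27% in mature tendon neutrophils, where Bcl2a1b made up 82.9%. The Bcl2a1 sum, which may also depend on the mix of these genes, was 441.5 (411.0 to 473.6) CPM in the dendritic-like cells. In mature tendon neutrophils it was lower, at 373.6 (347.1 to 401.5), and the intervals did not overlap. Blood monocyte/macrophage-like cells held Bcl2a1d at 35.3% and Bcl2a1b at 47.9% of the sum. The monocyte/macrophage-like cells also had their highest Bcl2a1b level in tendon, at 133.8 CPM against 55.8 in blood and 2.07 in marrow. Bcl2a1a and Bcl2a1d were instead higher in those of the blood, at 19.7 against 8.87 and 41.1 against 24.8 in tendon. The Bcl2a1 sum in these cells was 167.5 (163.1 to 172.0) in tendon, 116.6 (109.1 to 124.4) in blood and 5.70 in marrow.

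Bcl2 was highest in the lymphocyte-like classes. It stood at 623.3 CPM in the 21 marrow NK-like cells, too few to be ranked, and at 476.4 CPM in blood NK-like, 381.0 in T-like and 154.9 in B-like cells, while the mature gates gave 0 UMIs in marrow and blood. Bax, in contrast, was lowest in mature neutrophils of marrow and blood among the 19 groups and highest in tendon endothelial-like cells (235.4, 225.4 to 245.9). The interval of the 63 low-depth tendon cells (203.9, 140.3 to 286.3) overlapped that of the endothelial-like cells.

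The genes most like a member were ranked by Pearson's r of log2(CPM + 1) over the 19 groups, among 8951 genes with at least 1000 UMIs, as a description only, since groups of 1 library share its depth and the 63 tendon cells are among the groups. For Mcl1 they were Hbp1 (r = 0.94), Ubap1 (0.93) and March7 (0.92). For Bcl2a1b they were its paralog Bcl2a1d (0.95), which shares sequence with it, Gpr132 (0.92) and Cd274, which encodes PD-L1 (0.91). For Bcl2 they were Sesn1 (0.89), the lymphocyte kinase Lck (0.88) and Rnf138 (0.87).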

How the data were processed

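The deposited files hold raw UMI counts per gene and cell barcode that the authors made with Cell Ranger 5.0.1 on mm10, per the submitters' processing notes. There, 27998 genes were counted in 1855 marrow, 2241 blood and 5629 tendon barcodes, with 49580625, 22542581 and 90621052 UMIs. No column of a sample was left unused (0).

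Cells with under 200 genes or over 20% mitochondrial UMIs were removed. Scrublet's own threshold marked 1, 32 and 6 cells, so 0.8% of cells per 1000 cells were taken as doublets, those scoring highest (27, 38 and 198). Each library was clustered alone (scanpy 1.11.5, Leiden resolution 1), with 57 member and list genes left out of the variable genes. Clusters took a class name from at least 3 marker genes among their 100 leading genes, a rule settled after the clusters had been seen. It left 39 marrow and 167 tendon cells unnamed. Each cell of a neutrophil-like or promyelocyte-like cluster went to the gate list with the highest mean z of log(UMIs per 10000), 1 of 4. Within 0.1 of a gate border lay 9 mature cells in marrow, 2 in blood and 15 in tendon.

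UMIs were summed per group and given as CPM, with exact Poisson intervals for levels, the exact split of counts for ratios and Clopper-Pearson intervals for shares (scipy 1.17.1, 95%). A 0 was given an upper limit of 3 counts. With 1 library per site no significance test was possible: a gene is called tested where both groups together held at least 50 UMIs, and counted as higher or lower at 2-fold. Members and lists were chosen with earlier results of these data known. Beside the members, the text names up to 3 list genes per direction with the largest ratio and at least 100 UMIs; other list genes named were chosen after their values were seen. A result that this rule names is not reported here. The interval code was tested on simulated data. Cell filters, doublets, scaling, centring, cell weights, resolution, gates, UMI minimum and threshold were varied. Promoters came from RefSeq tables (GRCm38.p6), the build of the files, and gene models from GENCODE M21.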

Additional observations from a re-analysis of the deposited data

Results flagged for a closer look

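In 3 members the log2 ratio of mature neutrophils to monocyte/macrophage-like cells lay above 0 in one library and below 0 in another, with counting intervals clear of 0. Bcl2a1b was higher in neutrophils of the tendon (1.21, 1.09 to 1.33) and lower in those of the blood (-3.74, -4.66 to -2.95). Bcl2a1a went the same way, at 1.89 (1.48 to 2.28) in tendon and -3.13 (-4.47 to -2.05) in blood. Bcl2l11 was higher in tendon neutrophils (1.96) and lower in marrow neutrophils (-1, with an interval of -1.58 to -0.47). The median of all genes lay below 0 in each of these comparisons, at -1.31 in tendon, -1.23 in blood and -1.56 in marrow. Relative to it, Bcl2a1b stood at 2.52 and -2.52 and Bcl2a1a at 3.20 and -1.90, while Bcl2l11 stood at 3.27 in tendon and at 0.56 in marrow, so that its opposite direction was lost. Bcl2a1a and Bcl2a1b in blood and Bcl2l11 in marrow reached the 50 UMI minimum only through the monocyte/macrophage-like cells. Their lower calls therefore carry no weight as counts. The comparison cells differed as well, with Elane at 528.0 CPM in the monocyte/macrophage-like cells of marrow, 3.73 in blood and 14.5 in tendon. With 1 library per site the difference between sites was not tested.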

How the results depend on the processing

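No paired analysis was possible because each site has 1 library. Under the alternatives run, the members called between blood and tendon and within the tendon kept their number within 1.5 times, except for a minimum of 200 UMIs, which tested fewer members: 4 of 5 were called between tendon and blood (363 of 2168 genes higher) and 2 of 3 in marrow maturation (512 of 4301 higher). The comparison of blood with marrow rested on Bcl2l11 alone, at the limit: 0 members were called when S100a8, S100a9 and mitochondrial UMIs left the total, with a minimum of 200 UMIs, with gates from sub-clusters and without cells near a gate border, 2 of 4 at a 1.5-fold limit (554 of 4618 genes higher, against 186 at 2-fold), 4 of 8 with a minimum of 1 UMI (833 of 8235), and 5 of 7 when all cells of neutrophil-like clusters were compared (1148 of 8458), a setting that brings immature marrow cells in and was chosen after seeing the data. Between blood and marrow, Bcl2l11 reached the main UMI minimum only through blood, so its call carries no weight as a count. The share of mature cells with a UMI of any member was 65.3% in marrow, 80.2% in blood and 97.2% in tendon at 1000 UMIs per cell. It was 43.8%, 56.2% and 83.5% at 500 UMIs, and 99.5%, 100% and 99.8% without thinning. Of the single members' ratios under the alternatives, 247 stayed within the counting interval, 46 moved outside it, and none that was called changed sign; the uncalled Fas (blood against marrow), Bcl2a1d and Bcl2 (within the tendon) lay on either side of 0. The settings that leave out clusters were also chosen after seeing the data. Without the smaller neutrophil-like tendon cluster 5 of 6 tested members were called between tendon and blood (626 of 4498 genes higher). Bcl2a1a and Bcl2a1d were no longer tested there, because they fell under the UMI minimum. Within the tendon 5 of 9 were called without that cluster, 4 higher and 1 lower (1010 of 10552 genes higher, 6014 lower). Without the cycling macrophage-like cluster that holds S100a8, 6 of 9 were called within the tendon, 5 higher and 1 lower (1027 of 10404 genes higher, 5916 lower). Without the blood cluster led by Camp, 7 of 8 were called between tendon and blood (631 of 4347 genes higher). Between blood and marrow 1 of 4 was called without that blood cluster (244 of 4338 genes higher). The depth of the tendon neutrophils limits what can be said of Bcl2, Bcl2a1a and Bcl2a1d, and the marrow library of Bax in mature cells.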

Other observations

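A group of 63 tendon cells of the neutrophil-like clusters fell in the azurophil gate although Elane gave 0 UMIs in them and the whole azurophil list stood at 12.4 CPM, against 26732 in the marrow cells of that gate. Their mature list was also low (1322 against 4780 in the mature tendon gate) and their median depth was 2454 UMIs. Of the 63 cells, 53 belonged to the smaller neutrophil-like tendon cluster and 61 lay within 0.1 of a gate border. Their members resembled those of the mature tendon gate or stood above it, with Mcl1 at 3046, Bcl2a1b at 784.6, Bcl2l11 at 469.5, Cflar at 481.9, Fas at 234.8 and Bax at 203.9 CPM. Bcl2a1a and Bcl2a1d both stood at 86.5 (47.3 to 145.1). The intervals of Bcl2a1a, Bcl2a1b, Bcl2a1d and Bax did not overlap those of the mature gate. These cells entered none of the main ratios in the report. They did enter the alternatives that took gates from sub-clusters or all cells of neutrophil-like clusters. They are also 1 of the 19 groups ranked in the report and used for the most similar genes.

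Cells of the immature gate were few outside the marrow. The 26 in blood held Mcl1 at 577.8 (513.4 to 648.0) CPM, between the immature and the mature marrow gates.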
